A study of Mus musculus with 2 samples.

Results

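ETS proteins are transcription factors that share 1 kind of DNA-binding domain, which recognises sequences built around the core GGAA. A small subgroup, the ternary complex factors, binds next to serum response factor (SRF) at immediate early genes. The other members bind alone or with other partners, and several of them set B cell identity and the threshold for plasma cell formation. Described here are 10 ETS genes outside the ternary complex: Ets1, Ets2, Fli1, Elf1, Elf2, Elf4, Etv6, Gabpa, Spi1 and Spib. The rule used gene names and no values, though earlier results of these data were known when the genes were chosen. It took every probe set whose annotation named exactly 1 of the 10. This gave 18 probe sets of 20380 that named 1 gene, and 10 genes of 12393. A probe set is the group of short probes on the array that together measure 1 transcript region.

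The cells were primary mouse B cells carrying IgM and IgD on their surface, sorted by flow cytometry from spleen. Both samples, replicate 1 and replicate 2, carry the label of no genetic modification and form the wild-type group, with 1 array each. The study also set out to examine B cells without SRF, and those samples are not analysed here, so no genotypes were compared. Mouse strain and age are not given in the sources used here, nor how many animals gave each sample. Differences between animals and technical differences cannot be told apart in the spread between the arrays. With 2 samples of 1 group no test was possible, and differences are log2 signal of replicate 2 minus replicate 1.

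The arrays differed in ways that bear on every value below. An array's floor, the level that 90% of 103 probe sets for 64 genes of other organs stayed at or below, was 150.3 on replicate 1 and 92.4 on replicate 2. Log2 signals of probe sets that cleared both floors had a pooled SD between arrays of 0.64, or 1.56-fold. Gapdh, a glycolytic enzyme gene probed along its length, had a 3′ to 5′ signal ratio of 1.31 on replicate 1 and at least 8.92 on replicate 2, where its 5′ signal was below the floor. The same ratio for Actb was 3.57 and 8.15. Xist, the RNA of the inactive X chromosome, gave 740.4 and 15.3 on replicates 1 and 2. Its other probe sets gave 1024.8 and 5.7, and 48.6 and 6.2. The Y-linked Eif2s3y gave 3.4 and 248.7. The other measured Y-linked genes, by the brightest probe set, were Kdm5d with 88.4 and 175.9 and Uty with 44.8 and 57.7. Kdm5d cleared the floor of replicate 2 only, and Uty neither floor. B cell markers were above the floor on both arrays for 10 of 11 measured genes, among them Ighm, Cd22, Ms4a1 and Cd79b. The exception was Pax5, the factor of B cell commitment, with 21.5 and 15.6. Ighm cleared both floors by 2 of its 11 probe sets. By the brightest probe set, 7 of the 10 lay within 2-fold, and 2, Ebf1 and Cd37, were over 2-fold higher on replicate 2. The other, Cd79a, gave 2931 and 191.8, over 2-fold higher on replicate 1. Markers of 8 other blood and vessel cell types were above the floor on both arrays for 6 of 56 genes, or 10.7%. These were 3 of 7 neutrophil, 2 of 9 monocyte and macrophage and 1 of 6 platelet markers, and 0 of the other types. The share was 32.6% over all genes and 6.25%, or 4 of 64, over the other-organ genes.

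RefSeq windows of GRCm38.p6, 250 bases before to 50 after a start, were matched by symbol for 7 of the 10 genes, 10 windows in all, and not for Ets1, Fli1 and Spi1. The core GGAA, searched on both strands, was in 10 of the 10 windows and in 96.0% of all 32851 windows, so its presence sets no member apart. The windows of the members held it 1 to 8 times, with a median of 2, and the median over all windows was 3. The promoters of Spib and Elf4 are shown because Spib gave nearly the same signal on both arrays and Elf4 was above the floor on 1 array only. The stretch for Spib is chr7:44532088-44532321 on the minus strand, and that for Elf4 is chrX:48463133-48463382 on the minus strand. Both end where the RefSeq gene models begin, read 5′ to 3′, and have GGAA in capitals, with TTCC where the core lies on the other strand.

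Spib: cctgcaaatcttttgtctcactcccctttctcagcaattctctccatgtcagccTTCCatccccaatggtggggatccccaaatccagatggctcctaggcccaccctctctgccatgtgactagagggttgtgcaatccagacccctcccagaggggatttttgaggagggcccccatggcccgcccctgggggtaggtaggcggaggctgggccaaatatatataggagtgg

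Elf4: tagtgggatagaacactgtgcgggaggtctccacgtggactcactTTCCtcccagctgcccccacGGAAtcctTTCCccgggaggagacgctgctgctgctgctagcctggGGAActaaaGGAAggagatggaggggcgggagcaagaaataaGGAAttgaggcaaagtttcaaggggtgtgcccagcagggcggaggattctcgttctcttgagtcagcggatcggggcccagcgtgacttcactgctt

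The Spib stretch of 234 bases held the core 1 time, on the other strand, and the Elf4 stretch of 250 bases held it 4 times on the printed strand and 2 times on the other. A second RefSeq window of Elf4, at chrX:48454270-48454569, held it 2 times. Longer ETS sequences were rarer. CCGGAAG, the form bound by GABP and many other family members, was in 8.86% of all windows, and GAGGAAG, the form preferred by PU.1 and Spi-B, in 13.6%. Both were searched on both strands, and each contains GGAA. Of the members' windows, 1 held each of them, and it was that of Gabpa, which encodes the DNA-binding subunit of GABP. The matches lie close together, in the stretches chr16:84835020-84835049 for the first and chr16:84835000-84835029 for the second. Both stretches lie inside the RefSeq gene model of Gabpa, which begins at 84834891. They are printed as the plus strand with the match in capitals, and the first match is on the opposite strand.

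Gabpa, CCGGAAG: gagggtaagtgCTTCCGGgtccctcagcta

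Gabpa, GAGGAAG: ccaaacaggagGAGGAAGtggagggtaagt

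The CArG box, the sequence bound by SRF, was in 0 of the 10 windows and in 1.63% of all windows. These matches describe letters in a window and not binding.

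Of the 10 genes, 6 had at least 1 probe set above the floor on both arrays: Ets1, Ets2, Fli1, Elf1, Elf2 and Spib. Over all genes the share was 32.6%. By probe set it was 10 of 18, against 26.5% of all probe sets. A further 2 probe sets, 1 each of Fli1 and Elf4, were above it on replicate 1 only, where 9.46% of all were. Another 2, of Gabpa and Spi1, were above it on replicate 2 only, where 14.4% of all were. The remaining 4, of Elf2, Elf4, Etv6 and Gabpa, were above it on neither array. Probes differ in affinity, so the signal of 1 probe set was not ranked against that of another.

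**Figure D1:**
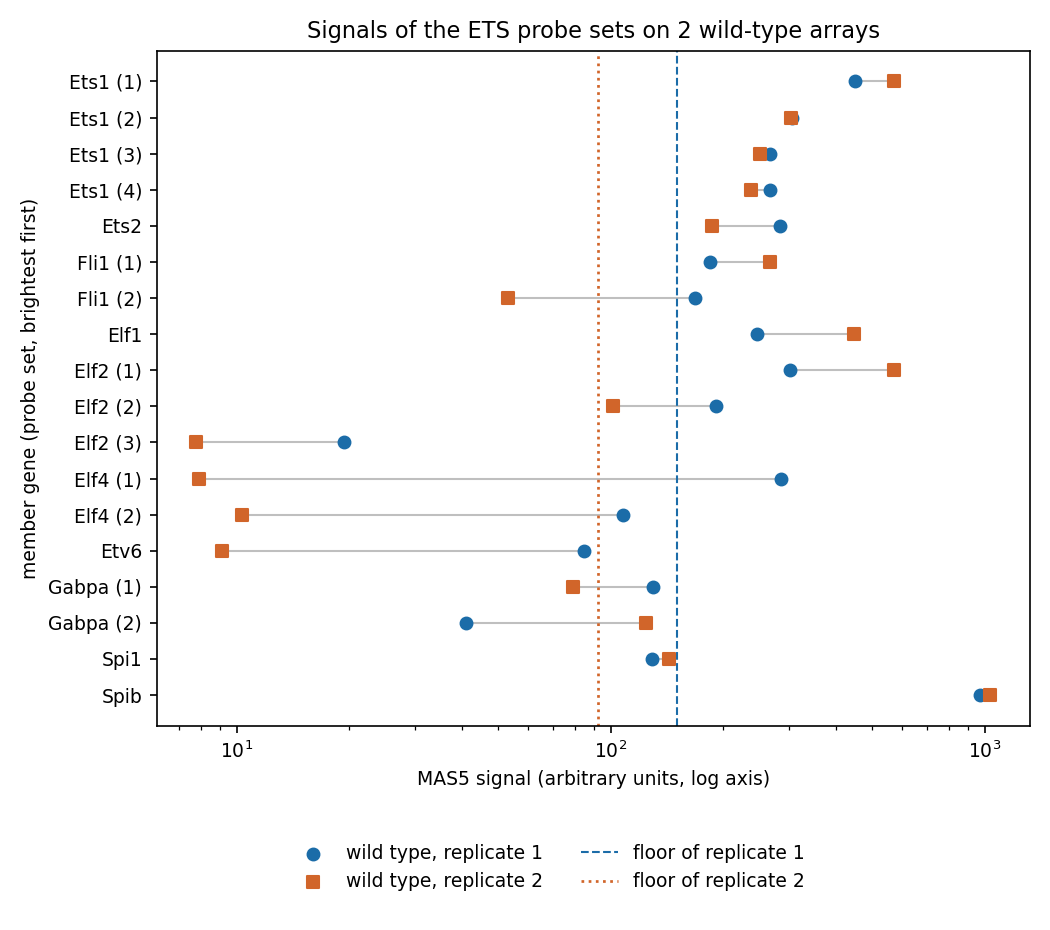
MAS5 signal of each of the 18 probe sets of the 10 ETS genes (log axis, arbitrary units) on wild-type replicate 1 (circles) and replicate 2 (squares), with each array's floor as a vertical line (150.3 and 92.4). Several probe sets of a gene are numbered from the brightest, and grey lines join the arrays: Ets1 and Spib lie to the right of both floors with their points close together, while Elf4 and Etv6 lie between 7.9 and 10.3 on replicate 2.

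Spib encodes Spi-B, a close relative of PU.1 found mainly in B cells and plasmacytoid dendritic cells. Its only probe set gave 973.1 in replicate 1 and 1032.4 in replicate 2, which averaged 1003 ± 41.9 (SD, n = 2). Both values exceeded all 103 probe sets of the other organs on the same array. The log2 difference of 0.09 was smaller than the spread between the arrays, and it became -0.54 with quantile normalization and 0.72 with median centring. Spi1 encodes PU.1, which drives myeloid cells at a high level and B cells at a lower one. It gave 128.7 and 142.7, a mean of 136 ± 9.90 (SD, n = 2), almost equal on the arrays as scaled. The first value lay below the floor of replicate 1, where 17 of the other-organ probe sets were as bright, and the second above that of replicate 2, where 3 were. At this background a PU.1 transcript was therefore not shown on replicate 1.

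Spi1 is also a gene of myeloid cells, so their markers are given beside it. Of 9 markers of monocytes and macrophages, 2 cleared both floors. These were Csf1r, the receptor for macrophage colony-stimulating factor, with 286.4 and 249.2, and the lysozyme gene Lyz2 with 291.0 and 178.3. The other Csf1r probe sets cleared 1 floor each and were opposed, with 208.6 and 15.2, and 23.2 and 96.7. The integrin gene Itgam gave 29.2 and 48.8 and Cd68 gave 6.7 and 25.5, below the floor on both, and no marker was listed at 0. The summed signal of the list was 1033 on replicate 1 and 783 on replicate 2, and that of the 64 other-organ genes was 5303 and 2737. Of 7 neutrophil markers 3 were above the floor on both, S100a8, Ngp and S100a9, with list sums of 979 and 917. Their part in the Spi1 signal was not tested. In sorted cells measured in bulk, fewer cells of a type and less RNA per cell cannot be told apart.

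Ets1, which holds back plasma cell differentiation in B cells, was measured by 4 probe sets, and all 4 cleared both floors. The brightest, 1426725_s_at, gave 450.5 on replicate 1 and 572.1 on replicate 2, or 511 ± 86.0 (SD, n = 2). The next, 1452163_at, gave 305.2 and 303.0, or 304 ± 1.56 (SD, n = 2). The others gave 266.3 and 250.6, and 266.6 and 236.5. The log2 differences ran from -0.17 to 0.34, within the spread between the arrays. The brightest was higher on replicate 2, and the other 3 were slightly lower there. The suffix of the brightest marks a class whose probes can match more than 1 transcript. Of 708 genes with at least 4 probe sets, 40 had every one above the floor on both arrays. Among these 40, Ets1 was the only one with no difference beyond 0.34. That limit is the largest difference of Ets1 itself, so this is a ranking by its own values and not a test. Median centring raised the difference of the brightest Ets1 probe set to 0.98, and quantile normalization lowered it to 0.03.

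Ets2, the closest relative of Ets1 and a target of growth factor signalling, gave 282.8 and 186.5 by its only probe set, or 235 ± 68.1 (SD, n = 2). It was lower on replicate 2 by a log2 difference of -0.60, within the spread between the arrays, which median centring turned to 0.03. Fli1 lies next to Ets1 on the chromosome, with no protein-coding gene between them in the RefSeq annotation, and acts in blood and vessel development. Its probe sets disagreed. The brighter, 1422024_at, gave 184.6 and 265.8, or 225 ± 57.4 (SD, n = 2), above the floor on both arrays. The other, 1433512_at, gave 168.1 and 53.2, and only the first value was above its floor. The first probe set was higher on replicate 2 and the second on replicate 1, so the direction for Fli1 depended on the probe set.

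Fli1 is active in endothelium and platelets, and Ets1 and Elf1 in T cells, so these markers were read as well. Endothelial markers were above the floor on both arrays for 0 of 8 genes, with summed signals of 818 on replicate 1 and 150.4 on replicate 2. Platelet markers gave 1 of 6, the integrin gene Itga2b with 160.7 and 101.7, and sums of 957 and 374. T cell markers gave 0 of 10, with Cd3e at 31.1 and 16.1 and sums of 835 and 277. NK, erythroid and dendritic cell markers gave 0 of 6, 0 of 5 and 0 of 5. All these sums include signals under the floors. The sum over the 64 other-organ genes, which set the floors, was also lower on replicate 2, with 5303 and 2737. A sum is therefore no measure of how many such cells were present. Taken singly, 1 endothelial, 3 platelet and 2 T cell markers cleared the floor of replicate 1, and 0, 1 and 0 that of replicate 2. No marker was listed at 0, and their part in the signals of Fli1, Ets1 and Elf1 was not tested.

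Elf1, Elf2 and Elf4 form a subgroup whose proteins act in lymphocytes. Elf1, an activator of T and B cell genes, gave 246.6 and 447.1 by its only probe set, or 347 ± 142 (SD, n = 2). It was higher on replicate 2 by a log2 difference of 0.86, under 2-fold as deposited, and by 1.49 with median centring. The brightest Elf2 probe set, 1428045_a_at, gave 301.9 and 572.1, or 437 ± 191 (SD, n = 2). A second Elf2 probe set, 1418275_a_at, also above both floors, gave 191.1 and 101.2. These differ by 0.92 and -0.92 on the log2 scale, equal in size and opposite in sign, and their mean was 0.00. The third, 1418276_at, gave 19.3 and 7.8, under both floors. Elf2 is known to make several isoforms, and the sources used here do not say which of them each probe set reads.

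Elf4, an X-linked gene whose product restrains the proliferation of T cells, was above the floor on replicate 1 only. Its brighter probe set, 1421338_at, gave 285.0 on replicate 1 and 7.9 on replicate 2. The value on replicate 1 was higher than all 103 other-organ probe sets there, and on replicate 2 as many as 70 of the 103 were at least as bright. Its signal on replicate 1 was 3.09-fold the floor of replicate 2, which makes no allowance for the higher floor of replicate 1. Of 7321 probe sets above the floor on replicate 1, 1.41% fell at least as far as this one. Of the 1927 above it on replicate 1 only, 10.5% were as low or lower on replicate 2. The second Elf4 probe set, 1421337_at, gave 107.6 and 10.3, below both floors and in the same direction. Elf3, an epithelial ETS gene, gave 330.8 and 7.0, and likewise just the first value cleared its floor. It was picked after its values were seen, from 11 measured ETS genes outside the 10 and the ternary complex factors. By the brightest probe set, 3 of these 11 cleared the floor of replicate 1 and 3 that of replicate 2. Etv3, for 1, cleared only that of replicate 2. Xist and the 3′ to 5′ ratios also differed between these arrays, as given above, and their part in the Elf4 values was not tested.

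Etv6, a repressor needed for blood stem cells, gave 84.9 and 9.1 by its only probe set. Both values were under their floors, so Etv6 was not detectable above background here and no fold or difference is given. Gabpa gave 129.4 and 79.3 by its brighter probe set, 1450665_at, below both floors. The other, 1450664_at, gave 40.9 and 124.2, and only the second value was above its floor. The probe sets were thus opposed, on signals near or under the floors. Gabpb1, which encodes the partner subunit that carries the activation domain of GABP, gave 54.3 and 94.6, above the floor on replicate 2 only.

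**Figure D2:**
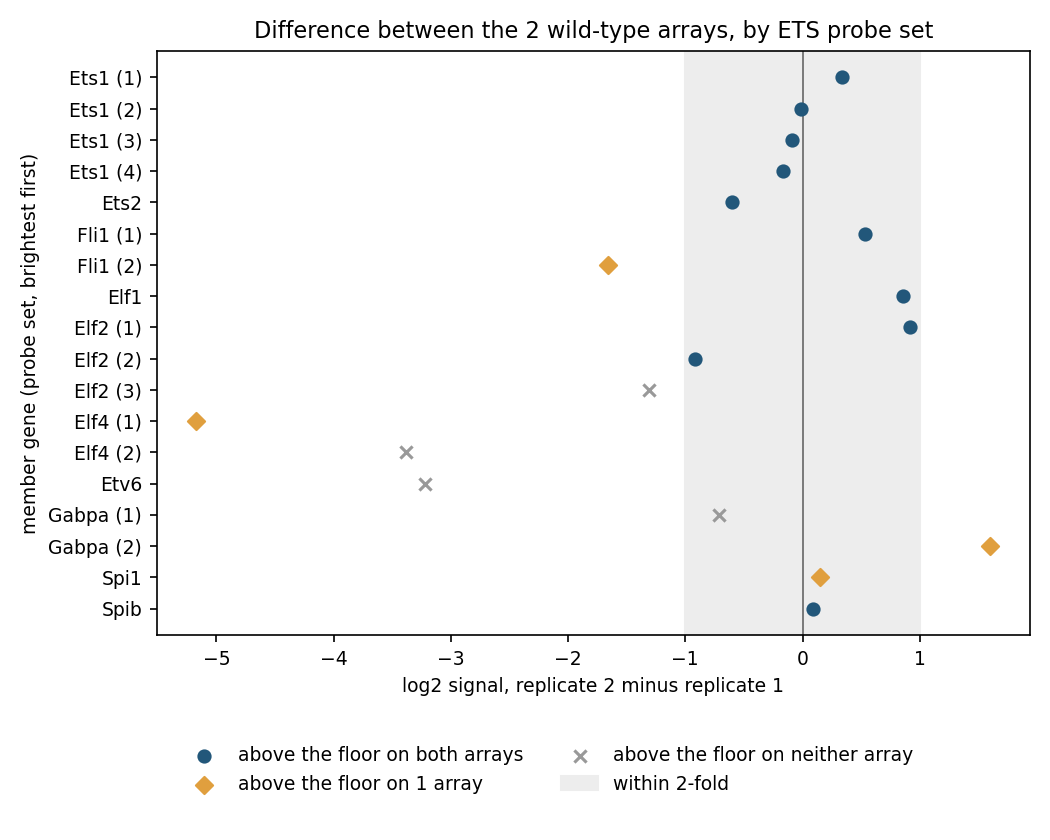
Log2 signal of replicate 2 minus replicate 1 for the 18 probe sets, with the band of under 2-fold shaded and symbols showing on how many arrays each was above the floor. Every probe set above the floor on both arrays lies inside the band, from -0.92 to 0.92, both of Elf2. A point with a signal under a floor, as for Elf4 on replicate 2 and Etv6 on both arrays, shows no measured size.

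By the brightest probe set, 0 of the 6 genes that cleared both floors exceeded a 2-fold difference towards replicate 2, and 0 towards replicate 1. Over the 4041 genes that cleared both floors the shares were 14.7% and 11.4%. Requiring both floors leaves out probe sets bright on only 1 array. With no floor, 5 of the 18 probe sets exceeded 2-fold towards replicate 1 and 1 towards replicate 2, against 34.2% and 19.5% of all probe sets. These counts include signals under the floor, where the size of a difference is not measured. The median difference of the 6 genes was 0.44, beside 0.02 for all genes above both floors. It was -0.21 with the mean over all probe sets of a gene and 0.05 with the mean over those above both floors, so its sign depended on how probe sets were combined. Median centring moved the median of all these genes by 0.63, and 3 of the 6, Fli1, Elf1 and Elf2, then lay over 2-fold higher on replicate 2. So did 35.6% of all genes above both floors. Of the 5 genes with several probe sets, 4 had differences of both signs, Ets1, Fli1, Elf2 and Gabpa. Among all 4956 genes with more than 1 probe set, 57.8% did, and among the 708 with at least 4, as Ets1 has, 85.3% did.

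The ETS genes outside these 10 fell into unlike groups. Of the ternary complex factors Elk1, Elk3 and Elk4, 2 of 3 were above the floor on both arrays. Elk4 gave 548.4 and 2355.3, over 2-fold higher on replicate 2, but its other probe sets gave 129.8 and 109.8, and 119.2 and 93.8. Elk1 gave 186.6 and 129.7 by its brighter probe set, and 65.9 and 18.5, under both floors, by the other. Elk3 gave 122.3 and 98.8 by its brightest probe set, and only the second value cleared its floor. The other Elk3 probe sets gave 124.7 and 20.1, and 6.8 and 74.5, under both floors and opposed in direction. Of 11 other measured ETS genes, such as Erg of endothelium and Ehf of epithelium, 1 was above both floors. It was Erf, a repressor regulated by ERK, with 220.2 and 110.3. Etv3, a repressor related to Erf, gave 141.2 and 317.5, and only the second value cleared its floor.

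**Figure D3:**
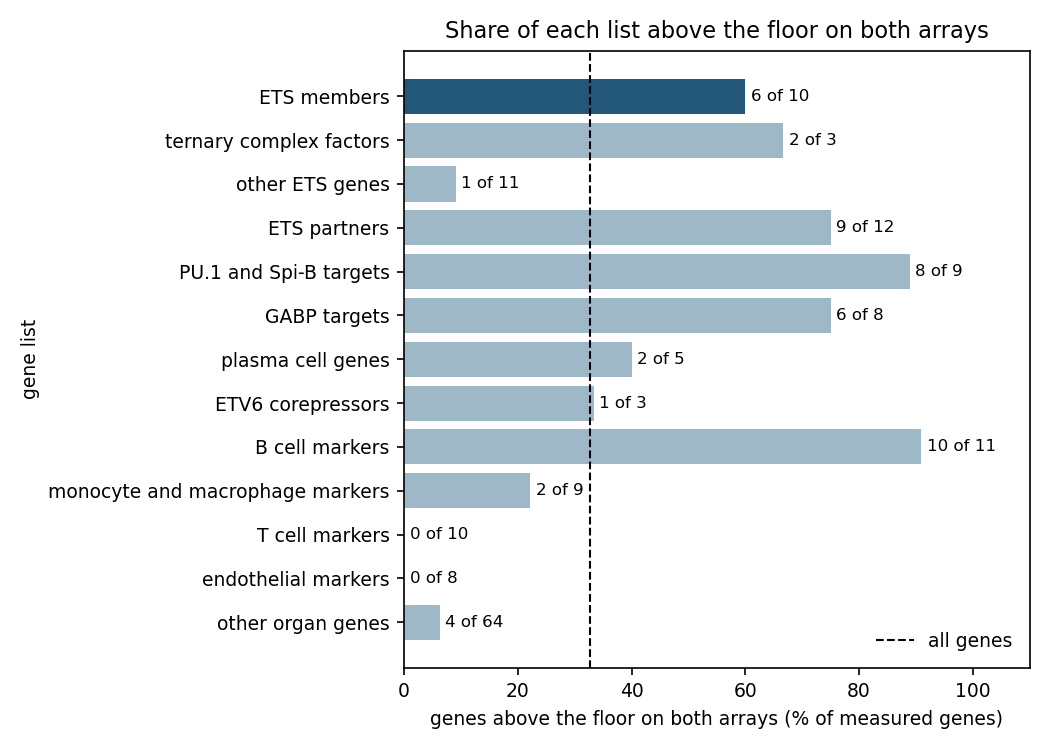
Share of the measured genes that cleared both floors in each list drawn, with the count beside each bar and the share of all genes (32.6%) as a dashed line. Neutrophil markers, at 3 of 7 and above the line, are not drawn. Platelet (1 of 6), NK (0 of 6), erythroid (0 of 5) and dendritic cell markers (0 of 5) and the sex-linked genes are not drawn either. The 10 ETS genes stand at 6 of 10, the other ETS genes at 1 of 11, and the partners and targets of the ETS factors at or above the line.

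Partners of the ETS proteins were above the floor on both arrays for 9 of 12 measured genes. Irf8, which binds DNA together with PU.1 or Spi-B, gave 2032 and 3005, and Irf4, which does the same, gave 1270 and 347.9, each by its brighter probe set. The other Irf8 probe set, also above both floors, gave 567.5 and 1325, over 2-fold higher on replicate 2. Cbfb, the partner subunit of the RUNX factors that bind beside Ets1, gave 728.3 and 1332. Ebf1, a B lineage factor, gave 578.6 and 1924. The other Ebf1 probe sets above both floors gave 295.9 and 414.3, and 218.2 and 373.7. By the brightest probe set, Ebf1 was over 2-fold higher on replicate 2, by the others it was not, and Irf4 and Ikzf1 were over 2-fold higher on replicate 1. The median difference over the 9 was 0.35. Of 3 measured corepressor genes of ETV6, Hdac3 was above both floors, with 399.0 and 156.3.

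Known targets of PU.1 and Spi-B in B cells were above both floors for 8 of 9 measured genes. Cd79b, which signals for the B cell receptor, gave 2657 and 3129, the adaptor gene Blnk 1856 and 2095, and the inhibitory Fc receptor gene Fcgr2b 1608 and 1506. By the brightest probe set 5 of the 8 lay within 2-fold, among them Btk, a kinase of the receptor pathway, with 610.7 and 483.6. Another Fcgr2b probe set above both floors gave 284.2 and 802.0, over 2-fold higher on replicate 2, while its remaining ones lay within 2-fold. Syk, another kinase of that pathway, gave 853.0 and 2779 by its brightest probe set, over 2-fold higher on replicate 2, while a second above both floors gave 564.0 and 819.2. The other signalling chain gene of the receptor, Cd79a, gave 2931 and 191.8, and the NF-kB gene Rel gave 621.4 and 201.0, both over 2-fold higher on replicate 1. The median difference of the list was 0.04. Of 8 genes with known GABP sites 6 were above both floors, among them the respiratory chain genes Cox5b, with 1382 and 3296, and Cox4i1, with 1504 and 1968. The ATP synthase gene Atp5b gave 566.4 and 571.4, and Tfam, a factor of mitochondrial DNA, 439.1 and 351.3. Among 5 plasma cell genes, which Ets1 restrains, 2 were above both floors, Xbp1 with 569.0 and 1540 and Irf4. Prdm1, which encodes Blimp-1, gave 222.3 and 42.2, and only the first value cleared its floor. Jchain, which encodes the joining chain of secreted IgM, gave 94.7 and 453.5, and only the second value did.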

How the data were processed

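RNA of sorted splenic B cells was measured on 1 Affymetrix array per sample, from 6 µg of total RNA per the labels' protocols. Each deposited value is a signal intensity, not log-transformed, made by the authors with MAS5 per the submitters' processing notes, whose version and parameters are not given in the sources used here. MAS5 multiplies each array by 1 factor, and the mean after trimming 2% at each end was 150.0 and 150.1, nearly equal. The factors are not given in the sources used here, and their part in the unlike floors was not tested. No detection calls were used. Of 22690 probe sets, 64 were controls, 20380 named 1 gene in the platform annotation, 691 named several and 1555 were unnamed here.

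Python 3.11.15 with pandas 2.3.3 and numpy 2.4.6 was used. The probe set of highest mean log2 signal stood for its gene, and a gene counted as above the floor if any of its probe sets was, on both arrays. The functions were tested on simulated data. No p-value was computed, since both samples belong to 1 group, and precision is limited by having 2 arrays. All probe sets of the 10 genes are given. Of each other list up to 4 genes above both floors with the highest mean were to be named. A few more, such as Pax5, Elf3, Etv3, Prdm1, Jchain, Gabpb1, Ikzf1, Btk, Cd79a, Cd37, Rel, Xist, Eif2s3y, Kdm5d, Uty, Itgam, Cd68 and Cd3e, were named after their values were seen. The genes and lists were chosen with earlier results of these data known. Promoter sequences are from RefSeq.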

Additional observations from a re-analysis of the deposited data

How the results depend on the processing

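The count of ETS genes above the floor on both arrays, 6, became 5 with a 95th-percentile floor, where Fli1 dropped out, and 8 with a floor at the array median, where Gabpa and Spi1 came in. Over all 12393 genes the count of 4041 became 2965 and 5300 with these floors. Quantile normalization, median centring and log2(signal + 32) keep the order of signals within an array, so the same probe sets clear its floor. Either mean over probe sets leaves the call unchanged, since any probe set clearing both floors was enough. These settings could not change the counts, 4041 and 6, and do not test them. Dropping _x_at and _s_at probe sets, which cut the count over all genes to 3658, left the ETS count at 6 with the same genes. On a single array it was 7 to 8 genes and 12 of 18 probe sets, against 35.9% of all probe sets on replicate 1 and 40.8% on replicate 2. The number of ETS genes over 2-fold higher on replicate 2 was 0 in all but median centring, which gave 3, beside 35.6% of all genes above both floors. On replicate 1 it was 0 throughout. The median difference, 0.44, fell to -0.21 with the mean over all of a gene's probe sets, and to 0.05 with the mean over those above both floors, an alternative chosen after seeing the data. It was 1.07 with median centring, while all genes then had a median of 0.65. Signals under a floor, such as those of Elf4 and Etv6 on replicate 2, give no measured size of a difference. No paired analysis was possible because there is 1 group.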
